A study of Mus musculus with 13 samples.

Results

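Genes that mark alveolar type 2 cells, together with the lysozyme gene Lyz2, were examined in melanoma cells recovered from the lungs of mice. The 9 genes were Sftpa1, Sftpb, Sftpc, Sftpd, Slc34a2, Napsa, Lamp3, Abca3 and Lyz2, out of 22656 genes in the table, and each matched 1 mouse Ensembl identifier by symbol. They were chosen by their normalised counts in APOE2 against APOE3 hosts, all libraries included, so that difference is given for them as a description, and no test of it supports a statement on them. Both groups received the same cells, B16F10-TR-shApoe, a GFP-carrying line derived from the mouse melanoma B16F10 with a hairpin RNA against its own Apoe, by tail-vein injection. The hosts were knock-in mice of the human allele APOE2 (8 libraries) or APOE3 (5 libraries), and their age, sex and strain are not given in the sources used here. On day 15 the lungs were digested with collagenase, and cells low in the dead-cell dye TO-PRO-3, negative for the leukocyte antigen CD45 and positive for GFP were sorted. The gate held no step against epithelial cells other than GFP. The labels do not say whether a library came from 1 mouse, so the spread between libraries may be in part technical.

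Type 2 cells are the cuboidal cells of the alveolus that make, store and recycle pulmonary surfactant, the film of phospholipid and protein that lowers surface tension at the air surface. Surfactant lipid is loaded into lamellar bodies, organelles related to lysosomes, and released together with the hydrophobic proteins SP-B and SP-C, while SP-A and SP-D are secreted collectins that bind microbes. Lyz2 encodes lysozyme M, an enzyme that cuts bacterial cell walls. It is widely used as a macrophage and neutrophil gene, and mouse type 2 cells are also known to express it.

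Reads recovered from the table ranged from 7284487 to 13039989 in APOE2 and from 7080308 to 8801867 in APOE3. The melanoma label held in every library: the 10 melanocyte genes listed summed to between 34642 and 57959 CPM (a library's normalised counts scaled to a total of 1000000). The 8 type 2 genes other than Lyz2 summed to between 93.5 and 2550 CPM. These genes thus gave at most 0.255% of the counts of any library. Among the libraries, APOE2 replicate 3 was lowest for 5 of the 9 genes and APOE3 replicate 4 highest for 7. APOE3 replicate 1 lay apart from the other 4 APOE3 libraries, inside the APOE2 range for 8 of the 9 genes, and values without it are given where it moves a result.

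The most abundant of the 9 was Sftpc (ENSMUSG00000022097, chromosome 14, 70520949 to 70524081, minus strand, GRCm38), which encodes the type 2 cell's own surfactant protein SP-C. In APOE2 its lowest, median and highest values were 389.8, 1125 and 2070.2 normalised counts. In APOE3 replicates 1 to 5 the values were 1585, 3965, 6699, 10966 and 6529.8. The 4 libraries after APOE3 replicate 1 lay above every APOE2 library, and replicate 1 lay below 3 of the APOE2 libraries. The mean was 1212 ± 617 (SD, n = 8) against 5949 ± 3502 (SD, n = 5). In log2(normalised count + 1), APOE2 minus APOE3 was −2.23 ± 0.37 (SE). Because the kit reads the end of each transcript next to the poly(A) tail, levels of different genes were compared as normalised counts without division by length.

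Sftpb (ENSMUSG00000056370, chromosome 6, 72304610 to 72314371) encodes SP-B, the other hydrophobic surfactant protein, without which lamellar bodies do not form properly. Its lowest, median and highest values in APOE2 were 22.1, 79.8 and 201 normalised counts. The APOE3 libraries had 169.6, 399, 816, 1114 and 752. Only APOE3 replicate 1 overlapped the APOE2 group, where APOE2 replicates 1 and 6 exceeded it. With −2.74 ± 0.45 (SE), Sftpb had the lowest log2 difference of the 9 genes.

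The collectin genes stand near each other on chromosome 14. Sftpa1 (ENSMUSG00000021789, 41131782 to 41136452) had 98.4, 692 and 1220.2 normalised counts as its lowest, median and highest APOE2 values. Its APOE3 values were 1011, 2439, 3356, 6390.0 and 3286. Sftpd (ENSMUSG00000021795, 41172214 to 41185149), at a distance of 35762 bases, had 55.3, 116 and 286 in APOE2. In APOE3 it had 243, 550.3, 713, 933 and 514. The pattern of both was that of Sftpc, with 4 APOE3 libraries above all APOE2 libraries and replicate 1 inside their range. The log2 differences were −2.32 ± 0.45 (SE) for Sftpa1 and −2.25 ± 0.36 (SE) for Sftpd.

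Slc34a2 (ENSMUSG00000029188, chromosome 5, 53038081 to 53071664) encodes the phosphate transporter NaPi-2b at the apical surface of type 2 cells. Its lowest, median and highest APOE2 values were 32.7, 123 and 203 normalised counts, and its APOE3 values were 242, 271, 778, 975 and 547. It was the 1 gene of the 9 whose groups did not overlap, where 0.508% of the 12403 genes tested had their 8 APOE2 values all under their 5 APOE3 values. The log2 difference was −2.28 ± 0.40 (SE).

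Napsa (ENSMUSG00000002204, chromosome 7, 44572380 to 44586862) encodes napsin A, an aspartic protease that takes part in processing SP-B. It had 7.35, 34.0 and 77.7 normalised counts as lowest, median and highest in APOE2. In APOE3 it had 49.5, 93.8, 177, 409 and 153. The lowest APOE2 value rested on 8 reads, with a 95% Poisson interval of 3.18 to 14.5 normalised counts that covers counting error only. The log2 difference was −2.23 ± 0.54 (SE). An exon of Napsa overlaps Gm15396 on the opposite strand, and the strand setting used in counting is not given in the sources used here.

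Lamp3 and Abca3 belong to the lamellar body. Lamp3 (ENSMUSG00000041247, chromosome 16, 19653378 to 19706375), which encodes the lysosomal membrane protein DC-LAMP of the lamellar body, had 10.6, 26.4 and 59.97 normalised counts as lowest, median and highest in APOE2. In APOE3 it had 30.5, 88.1, 144, 160.0 and 164. Its log2 difference was −1.99 ± 0.49 (SE). Abca3 (ENSMUSG00000024130, chromosome 17, 24351950 to 24410201) encodes the transporter that pumps phospholipid into lamellar bodies. Its lowest, median and highest values in APOE2 were 80.2, 115 and 168 normalised counts, and in APOE3 it had 147, 174, 222, 185 and 183. The log2 difference, −0.65 ± 0.23 (SE), was the one nearest 0 of the 9. Abca3 was at 164 in APOE2 replicate 3, the library with the lowest Sftpc, and at 80.2 in APOE2 replicate 6, where Sftpc was 1748. An exon of Abca3 overlaps D330041H03Rik on the opposite strand.

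Lyz2 (ENSMUSG00000069516, chromosome 10, 117277331 to 117282321) was nearly as abundant as Sftpc. Its lowest, median and highest APOE2 values were 186, 1027 and 2119 normalised counts. The APOE3 libraries had 1506, 3520, 4205, 11891 and 5320. APOE3 replicate 1 again lay inside the APOE2 range and the other 4 above it. The mean was 1162 ± 694 (SD, n = 8) against 5288 ± 3944 (SD, n = 5), a log2 difference of −2.21 ± 0.45 (SE). Lyz2 exceeded Sftpc in 4 of the 13 libraries, so the order of these 2 genes was not fixed, whereas Sftpa1 lay below Lyz2 in 13 of 13. Over all 13 libraries Sftpb, Sftpd and Slc34a2 had means of 312, 309.6 and 289 normalised counts, closer to one another than their spread between libraries. Abca3 followed with 143, then Napsa with 91.6 and Lamp3 with 63.6.

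**Figure D1:**
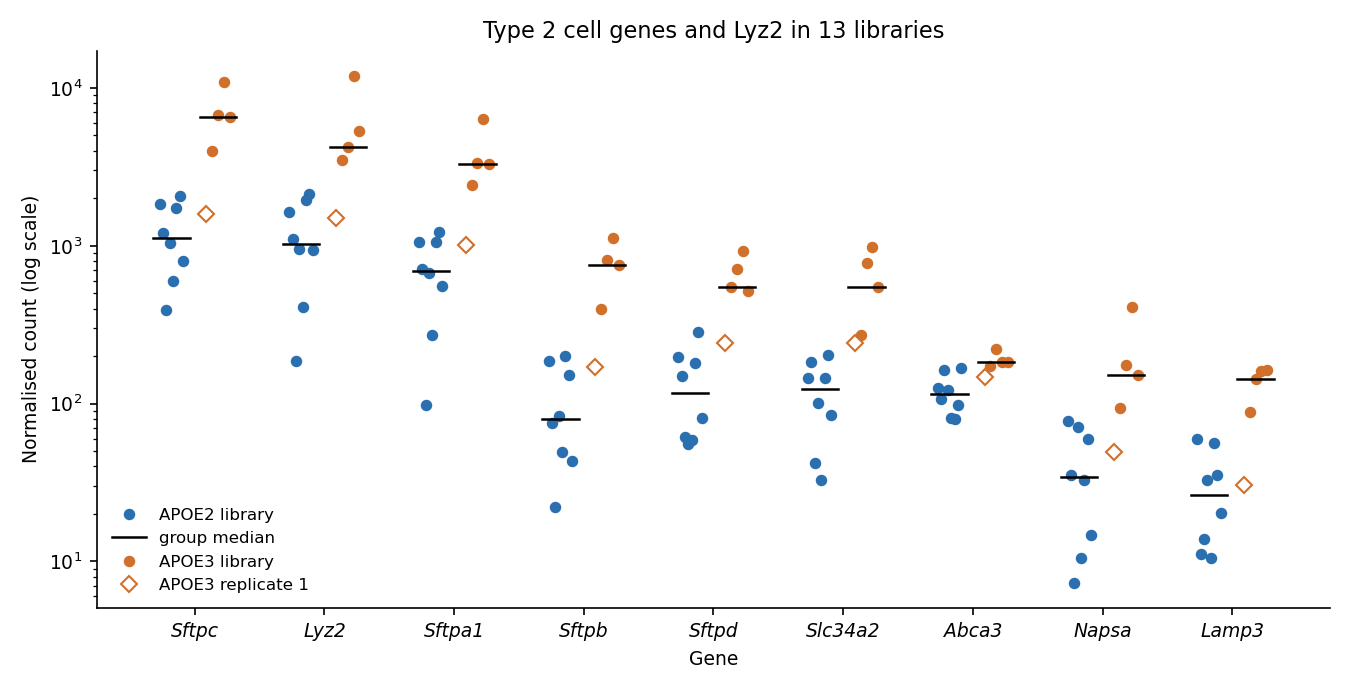
Normalised counts (log axis) of the 9 genes in each of the 8 APOE2 and 5 APOE3 libraries, with a line at each group median and APOE3 replicate 1 drawn as an open diamond. In 8 genes the diamond lies inside the APOE2 range, and for Sftpc the other 4 APOE3 libraries lie between 3965 and 10966.

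Across the table, limma was fitted to 12403 genes with Benjamini-Hochberg adjustment over all of them. Past an adjusted p of 0.05, 47 genes were lower in APOE2, which is 0.379% of those tested, and 51 were higher (0.411%), together 0.79%. Of the 9 genes, all of which passed the filter on low values, 7 were among the lower genes and 0 among the higher. Since this contrast was known when the genes were picked, nothing is read from that count. Lamp3 and Abca3 were the other members. With single libraries left out, Napsa lost its call in 10 of 13 fits and Lamp3 gained one in 2. A log2 difference of −1 or below was found for 8, all but Abca3, beside 4.18% of genes tested. The median log2 difference over the 9 was −2.23, beside 0.0004 over all genes tested. The count of members past the adjusted p threshold, 7 with all libraries, was 8 without APOE3 replicate 1, 3 without APOE3 replicate 3, and 4 without APOE3 replicate 4. Over all genes, the count of lower genes, 47 with all libraries, was 97, 4 and 9 in the same 3 settings. In bulk RNA, fewer type 2 cells in a sorted sample and less type 2 RNA per cell cannot be told apart. Nor can RNA carried over from the digested lung with the sorted cells be told apart from either. None of these was tested.

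The upstream sequences of the genes were then compared. RefSeq windows (GRCm38.p6) of the 250 bases before a RefSeq start site were searched for 4 short motifs on both strands, and 6 of the 9 genes had a window (not Sftpc, Sftpd and Napsa). The motifs were CTCAAG, the core bound by the lung factor NKX2-1, present in 13.3% of 32851 such windows, TGTTTAC, bound by forkhead factors (3.17%), TTNNGCAA, bound by C/EBP factors (9.56%), and TATAAA (12.4%). None of these motifs contains another. Sftpb held CTCAAG at 2 positions, 100 and 15 bases before the start counted to its first base. Sftpa1 held CTCAAG once and TATAAA at 30 bases before the start. Lamp3 held the forkhead letters once. The Slc34a2 window, which held the C/EBP letters once, begins 11022 bases inside the gene as GENCODE annotates it, so it stands before an internal start and not upstream of the whole gene. The windows of Sftpa1, Lamp3, Lyz2 and Abca3 reach 6, 10, 49 and 73 bases into the annotated gene. Abca3 and Lyz2 held none of the 4 in this window. The Abca3 window had 21 CpG and 67.6% G and C, beside 3 CpG in Sftpa1, 7 in Sftpb, 0 in Lamp3 and 1 in Lyz2, and 28 in the internal window of Slc34a2. The median over all windows was 6. A match is a description of letters and not evidence of binding. Shown are Sftpb and Sftpa1, which followed Sftpc closely, Abca3, which did not, and Lyz2 with its neighbour Lyz1, each 5′ to 3′ on the gene's strand and ending before the annotated gene, with matched motifs in capitals:
Sftpb, chr6:72304360-72304609, plus strand: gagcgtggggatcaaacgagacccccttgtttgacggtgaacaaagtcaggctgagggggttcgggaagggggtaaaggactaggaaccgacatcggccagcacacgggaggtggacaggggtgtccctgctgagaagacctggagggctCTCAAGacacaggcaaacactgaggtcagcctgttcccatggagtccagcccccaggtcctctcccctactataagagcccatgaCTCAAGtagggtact
Sftpa1, chr14:41131538-41131781, plus strand: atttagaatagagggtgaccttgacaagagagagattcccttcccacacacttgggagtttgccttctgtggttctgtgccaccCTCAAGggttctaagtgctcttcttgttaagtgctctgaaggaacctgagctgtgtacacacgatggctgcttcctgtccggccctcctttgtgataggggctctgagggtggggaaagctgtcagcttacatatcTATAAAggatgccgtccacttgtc
Abca3, chr17:24351773-24351949, plus strand: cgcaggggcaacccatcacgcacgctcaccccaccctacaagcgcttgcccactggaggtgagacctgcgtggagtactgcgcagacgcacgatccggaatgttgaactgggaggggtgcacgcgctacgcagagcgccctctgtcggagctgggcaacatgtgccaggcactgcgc
Lyz2, chr10:117282322-117282522, minus strand: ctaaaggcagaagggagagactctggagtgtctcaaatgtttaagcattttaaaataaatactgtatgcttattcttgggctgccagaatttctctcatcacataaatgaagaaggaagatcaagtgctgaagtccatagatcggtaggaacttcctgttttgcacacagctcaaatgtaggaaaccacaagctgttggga
Lyz1, chr10:117292869-117293118, minus strand: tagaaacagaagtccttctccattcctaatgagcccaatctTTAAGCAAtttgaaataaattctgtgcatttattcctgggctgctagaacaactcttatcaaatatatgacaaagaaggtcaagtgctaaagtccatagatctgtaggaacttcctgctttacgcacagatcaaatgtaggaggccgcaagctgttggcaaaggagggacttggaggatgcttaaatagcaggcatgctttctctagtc

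The make-up of the type 2 counts was then examined, since the sum differed many-fold between libraries. The sum of the 8 genes was 289 ± 144 CPM (SD, n = 8) in APOE2, from 93.5 to 488, and 1391 ± 797 (SD, n = 5) in APOE3, from 427 to 2550. APOE3 replicate 1, at 427, lay between APOE2 replicates 6 (425) and 7 (488). Within that sum Sftpc took 45.3% to 53.6% in the APOE2 libraries and 45.6% to 53.8% in the APOE3 libraries. Sftpa1 took 24.5% to 31.5% in 12 libraries and 12.3% in APOE2 replicate 3. The share of Abca3 ran the other way. It was 20.5% in APOE2 replicate 3, where the sum was lowest, and 0.873% in APOE3 replicate 4, where the sum was highest. The ratio of Lyz2 to Sftpc had a mean of 0.899 ± 0.227 across APOE2 libraries and of 0.873 ± 0.169 across APOE3 libraries (SD), between 0.476 and 1.17 in all. These shares come from the same contrast that chose the genes and were not tested between genotypes.

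**Figure D2:**
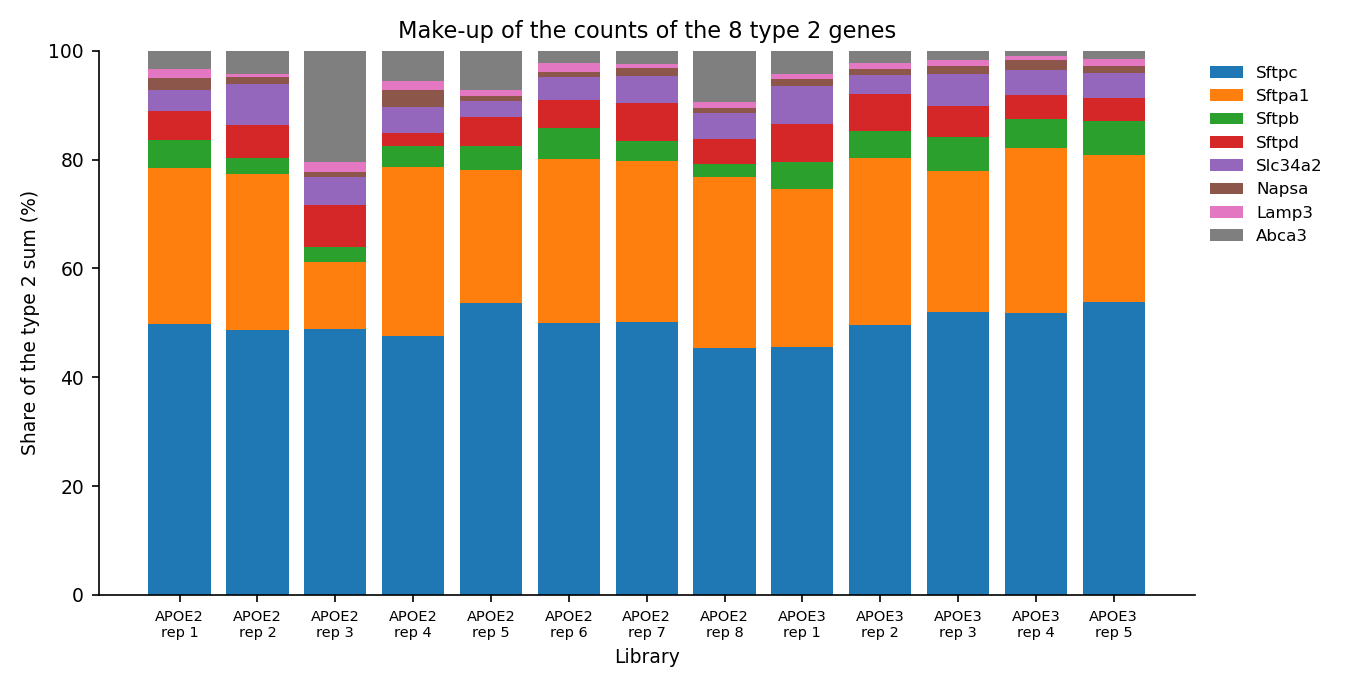
Share (%) of the summed normalised counts of the 8 type 2 genes taken by each gene, 1 bar for each of the 8 APOE2 and 5 APOE3 libraries. Sftpc holds between 45.3% and 53.8% in every bar, and Abca3 is widest, at 20.5%, in APOE2 replicate 3.

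Relations between the genes within the 8 APOE2 libraries do not use the difference between genotypes, and were tested there. Values were log2(normalised count + 1), p-values came from two-sided exact permutation tests over all orders of the libraries, and adjustment covered the 19 relations computed. With Sftpc, 6 of 8 genes were past an adjusted p of 0.05 for Pearson's r. Sftpa1 had r = 0.964 (exact permutation p = 2.5e-05, adjusted 0.000471) and Spearman's rho = 1.0 (exact permutation p = 5e-05, adjusted 0.000942). Lyz2 had r = 0.972 (exact permutation p = 7.4e-05, adjusted 0.000628) and rho = 0.976 (exact permutation p = 0.000397, adjusted 0.00251). Sftpb had r = 0.958 (exact permutation p = 0.00062, adjusted 0.00236) and rho = 0.857 (exact permutation p = 0.0107, adjusted 0.0339). Libraries with more Sftpc thus had more of these 3 transcripts.

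Slc34a2 followed with r = 0.900 (exact permutation p = 0.00275, adjusted 0.00872) and rho = 0.905 (p = 0.00456, adjusted 0.0173). Sftpd and Napsa both had r = 0.865 (exact permutation p = 0.00756, adjusted 0.0180), with rho = 0.833 (p = 0.0154, adjusted 0.0417) and 0.786 (p = 0.0279, adjusted 0.0663). Lamp3 did not pass, at r = 0.750 (exact permutation p = 0.0371, adjusted 0.0782) and rho = 0.738 (p = 0.0458, adjusted 0.0968). Abca3 had r = −0.43 (exact permutation p = 0.279, adjusted 0.407) and rho = −0.36 (p = 0.389, adjusted 0.528). Without APOE2 replicates 3 and 5, the libraries farthest from the median of Sftpc, r was 0.992 for Sftpa1, 0.949 for Lyz2, 0.935 for Sftpb, 0.881 for Sftpd, 0.791 for Slc34a2, 0.597 for Napsa, 0.620 for Lamp3 and −0.72 for Abca3 (n = 6). In those 6 libraries the unadjusted exact permutation p was 0.0736 for Slc34a2 and 0.207 for Napsa, so both relations rest in part on the lowest libraries.

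Over all 13 libraries, each genotype centred on its own mean, the 28 pairs of genes without Abca3 had correlations from 0.662 to 0.989 with a median of 0.868. The 8 pairs with Abca3 had −0.25 to 0.080. These values are a description, since all genes share libraries and scaling. The highest pair was Lyz2 with Sftpa1. The spread of the genes was set against that of genes at the same level. Sftpc had a coefficient of variation of 50.9% within APOE2, where the median was 12.2% among 679 genes within 1.25-fold of its mean. Lyz2 had 59.8% against 12.4% among 720 genes. Sftpa1, Sftpb, Sftpd and Slc34a2 had 55.9%, 67.4%, 62.6% and 53.4%, against medians of 13.9%, 29.6%, 26.1% and 28.0%. Napsa had 71.8% against 46.1% and Lamp3 65.8% against 52.1%, which placed them at percentiles 93.8 and 80.4 of the genes at their level. Abca3 had 28.5% against 27.9% among 1135 genes, at percentile 53.0.

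**Figure D3:**
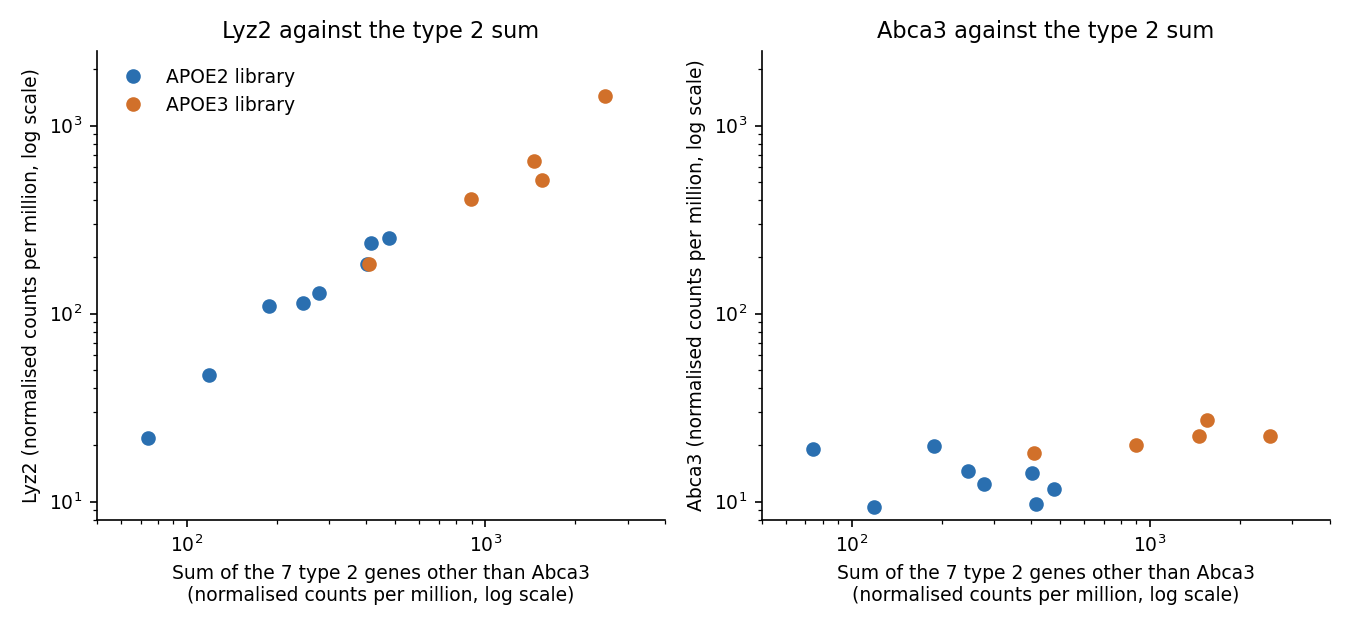
Lyz2 (left) and Abca3 (right) against the sum of the 7 type 2 genes other than Abca3, all in CPM on log axes, 1 point for each of the 8 APOE2 and 5 APOE3 libraries. Lyz2 rises along the sum from 21.7 to 1435 CPM across the 13 points, while the Abca3 points lie in a narrow band.

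Lyz2 is also a gene of macrophages, and markers of such cells were set against the same type 2 sum. The sums of these markers were not set against Lyz2 itself, and the cell source of Lyz2 was not tested. The log2 sum of the 8 type 2 genes correlated with Lyz2 at r = 0.980 (n = 8, exact permutation p = 9.9e-05, adjusted 0.000628) and rho = 0.976 (exact permutation p = 0.000397, adjusted 0.00251), and at r = 0.955 without APOE2 replicates 3 and 5. Between the type 2 sum and the sum of 10 alveolar macrophage markers r was 0.329 (exact permutation p = 0.434, adjusted 0.515) and rho 0.690 (exact permutation p = 0.0694, adjusted 0.132). Between the type 2 sum and 15 other myeloid markers r was 0.374 (exact permutation p = 0.368, adjusted 0.4995) and rho 0.286 (exact permutation p = 0.501, adjusted 0.595). Without APOE2 replicates 3 and 5 these 2 values of r were 0.573 and 0.275 (n = 6). The alveolar macrophage markers summed to 10.1 to 61.7 CPM in APOE2 and 7.75 to 39.1 in APOE3, and the other myeloid markers to 25.1 to 71.4 and 30.1 to 61.0. Lyz2 alone ran from 21.7 to 251 and from 185 to 1435 CPM. Of the alveolar macrophage genes 3 of 10 passed the filter and 0 were past the threshold in either direction, by limma, edgeR or DESeq2, with 0 at an unadjusted p under 0.05 by limma. The scavenger receptor gene Marco had 0 to 23 reads in APOE2 and 0 in 4 of 5 APOE3 libraries, and the lectin gene Siglecf had 0 in all 5, where 3 reads would be 2.82 to 3.47 normalised counts. The most abundant gene of that list, the cathepsin gene Ctsk, had means of 216 ± 84.5 (APOE2) and 170.5 ± 73.5 (APOE3) normalised counts (SD), and so makes up much of the list's sum. Chil3, a chitinase-like gene of the same list, had 3.68 to 90.6 normalised counts in APOE2 and 8.43 to 75.3 in APOE3, with means of 36.5 ± 32.1 and 30.7 ± 26.7 (SD). Over 13 libraries, each genotype centred, Chil3 had a correlation of 0.787 with Lyz2 and 0.744 with the mean of the 8 type 2 genes, above those of Ctsk (0.404 and 0.514) and Fabp4 (0.312 and 0.359), the other tested genes of the list. The tested genes of this list thus differed from one another. Their values cover 13 libraries and those of the list's sum only the 8 of APOE2, so they are not compared. Of the other myeloid genes 5 of 15 passed the filter and 0 were past the threshold, with 0 at an unadjusted p under 0.05 by limma and 0 past it by edgeR or DESeq2. The most abundant, the neutrophil gene S100a8, had 122 ± 61.9 and 118 ± 54.2 normalised counts (SD).

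Lyz2 has a near-identical neighbour, Lyz1, which lies 5476 bases away and encodes the other mouse lysozyme. In the last 300 bases of the annotated transcripts, where this kit reads, 286 of 295 aligned bases were identical, so reads of the 2 genes may have been split or dropped by the counting. Lyz1 had 0 reads in APOE2 replicate 3, which allows up to 2.76 normalised counts, and up to 196 in the other APOE2 libraries. In APOE3 it had 147, 258, 528, 1557 and 795. Lyz1 stood at 0% to 15.5% of Lyz2 in APOE2 and at 7.32% to 14.9% in APOE3. Its centred correlation with Lyz2 over 13 libraries was 0.864. Between the last 201 bases of the 2 windows shown, 128 of 150 aligned bases were identical. The Lyz2 window had been cut by 49 bases and the Lyz1 window kept all 250. The stretches compared were therefore offset, and the rest of them was not aligned.

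Other type 2 markers, a list of 17 genes not among the 9, all passed the filter and all had negative log2 differences, with a median of −2.52 and a range of −3.14 to −0.34. By limma 2 of 17 fell past the threshold, beside 0.379% of all genes, and 13 were lower at an unadjusted p under 0.05, beside 6.71%. The 2 were Cxcl15, a lung epithelial chemokine gene, with 234 ± 149 against 1066 ± 701 normalised counts (SD, log2 difference −2.31 ± 0.48, SE), and the mucin gene Muc1, with 14.9 ± 15.2 against 78.1 ± 34.1 (−2.63 ± 0.60, SE). Cxcl15 had its lowest APOE2 value, 31.3, in replicate 3 and its highest APOE3 value, 2138, in replicate 4. In the APOE2 libraries the sum of these 17 genes correlated with the type 2 sum at r = 0.963 (n = 8, exact permutation p = 0.000198, adjusted 0.000942) and rho = 0.905 (exact permutation p = 0.00456, adjusted 0.0173), and at r = 0.880 without APOE2 replicates 3 and 5 (n = 6). This sum does not speak for each of its genes. Etv5, with 282 ± 99.1 and 384 ± 103 normalised counts (SD), had a centred correlation of −0.20 with the mean of the 8 type 2 genes over 13 libraries. The other genes of the list ran from 0.569 to 0.963. Nkx2-1, which encodes the factor that drives surfactant genes, was low at 6.72 ± 5.30 against 35.4 ± 18.8 normalised counts (SD), with a log2 difference of −2.57 ± 0.84 (SE) that did not pass. By edgeR and by DESeq2 the count was 7, where 77 and 158 of all genes tested were called lower. The limma count of 2 was 0 without APOE2 replicate 2, APOE2 replicate 5, APOE3 replicate 3 or APOE3 replicate 4, and 7 without APOE3 replicate 1.

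Genes for making and recycling surfactant phospholipid are not restricted to type 2 cells. Of 11 such genes 10 passed the filter. In limma 2 fell past the threshold and 0 rose, beside 0.379% and 0.411% of all genes tested. The median log2 difference was −0.30. Lpcat1, which encodes the acyltransferase that forms dipalmitoyl phosphatidylcholine, had means of 118 ± 33.5 (APOE2) and 248 ± 56.2 (APOE3) normalised counts (SD), a log2 difference of −1.09 ± 0.24 (SE). The groups did not overlap for Lpcat1, with a highest APOE2 value of 154 and a lowest APOE3 value of 166. Scd1, a fatty acid desaturase gene, had 852 ± 121 and 1563 ± 503 (SD), a log2 difference of −0.83 ± 0.16 (SE). The most abundant gene of the list, Acly, which encodes the citrate lyase of lipid synthesis, had 2021 ± 262 and 2460 ± 350 (SD) and did not pass. In APOE2 the sum of this list had r = −0.34 with the type 2 sum (n = 8, exact permutation p = 0.411, adjusted 0.515) and rho = −0.40 (exact permutation p = 0.327, adjusted 0.478), and r = 0.193 without APOE2 replicates 3 and 5 (n = 6), so its sign rested on those libraries. Lpcat1 had a centred correlation of 0.062 with the mean of the 8 type 2 genes over 13 libraries, and Abca3 one of −0.046.

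Markers of other lung cells are given beside these values. Over all 12403 genes tested, limma called 0.379% lower, and 6.71% were lower at an unadjusted p under 0.05. The lower calls over all genes were 47 in limma, 77 in edgeR and 158 in DESeq2. The 10 type 1 cell markers summed to 54.4 to 84.3 CPM in APOE2 and 77.9 to 138 in APOE3. In limma 0 of 7 tested passed and 4 were lower at an unadjusted p under 0.05, while edgeR called 1 and DESeq2 2. The most abundant, Pdpn, had 305 ± 44.8 and 352 ± 171 normalised counts (SD), and a centred correlation of −0.39 with the mean of the type 2 genes over 13 libraries. Ager, the receptor gene that marks type 1 cells, had 26.8 ± 18.1 and 81.4 ± 36.3 normalised counts (SD) and a centred correlation of 0.854. Emp2, a membrane protein gene, had 42.2 ± 17.9 and 138 ± 90.8 (SD) and one of 0.713. These were the highest of the list. The remaining tested genes had 0.492 (Cav1), 0.402 (Aqp5), 0.241 (Clic5) and −0.405 (Rtkn2). The 12 endothelial genes summed to 56.2 to 80.6 and 79.7 to 206 CPM. Of these 1 of 12 passed in limma, 2 in edgeR and 6 in DESeq2, and 10 were lower at an unadjusted p under 0.05 in limma. The limma call was the receptor gene Calcrl, with 36.5 ± 9.78 and 113 ± 41.4 normalised counts (SD, log2 difference −1.60 ± 0.35, SE), and the most abundant, Egfl7, had 177 ± 29.7 and 281 ± 75.9. The 12 fibroblast and smooth muscle genes summed to 30.01 to 84.1 and 63.0 to 354 CPM. Here 2 of 8 passed in limma and 3 in edgeR and in DESeq2. The limma calls were the smooth muscle actin gene Acta2 (12.2 ± 9.96 and 89.3 ± 45.8 normalised counts, SD) and the matrix gene Mgp (183 ± 50.7 and 449 ± 247, SD). All tested genes of these lists had negative log2 differences, 7 of type 1 cells, 12 of endothelium and 8 of fibroblasts and muscle. Among all 12403 genes tested, 6195 were negative. The medians were −1.15, −1.56 and −1.23, so lower values in APOE2 were not particular to type 2 genes. The part of these cells in the differences above was not tested.

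Within the 8 APOE2 libraries the sums of these other lists had no relation with the type 2 sum past the threshold. A sum does not speak for each of its genes. The correlation of Ager given above covers 13 libraries, APOE3 included, and was not computed within these 8. The relation with the type 1 list had r = −0.059 (n = 8, exact permutation p = 0.889, adjusted 0.889) and rho = −0.24 (exact permutation p = 0.582, adjusted 0.651). The endothelial list had r = −0.65 (exact permutation p = 0.0887, adjusted 0.160) and rho = −0.55 (exact permutation p = 0.171, adjusted 0.271), and the fibroblast and muscle list r = 0.472 (exact permutation p = 0.242, adjusted 0.383) and rho = 0.048 (exact permutation p = 0.935, adjusted 0.935). For the melanocyte list r was 0.109 (exact permutation p = 0.805, adjusted 0.850) and rho 0.214 (exact permutation p = 0.619, adjusted 0.653), and for the read total r was 0.227 (exact permutation p = 0.602, adjusted 0.673) and rho 0.310 (exact permutation p = 0.462, adjusted 0.585). The airway list had r = 0.625 (exact permutation p = 0.0926, adjusted 0.160) and rho = 0.667 (exact permutation p = 0.0831, adjusted 0.144). Without APOE2 replicate 2, where airway genes were highest, the airway relation was past the threshold, at r = 0.791 (n = 7, exact permutation, adjusted p = 0.0465), and without APOE2 replicate 3 it was r = 0.338 (exact permutation, adjusted p = 0.637). A p that misses the threshold with 8 libraries does not show that a relation is absent. Without APOE2 replicates 3 and 5 the values of r were −0.21, −0.68, −0.49, 0.185, 0.299 and 0.201 for the lists, the read total and the airway list in the order given (n = 6), so the sign for the fibroblast and muscle list rested on those libraries.

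Airway genes had a pattern of their own. The club cell genes Scgb1a1 and Scgb3a1 had 1065 and 442 normalised counts in APOE2 replicate 2 and 174 and 95.4 in APOE2 replicate 1. In the other 11 libraries Scgb1a1 reached at most 44.1 and Scgb3a1 at most 5.18, and Scgb3a1 had 0 reads in all 5 APOE3 libraries. Cbr2, listed with them, was the 1 airway gene of 8 tested past the threshold, beside 0.379% of all genes called lower. It had 73.8 ± 47.0 against 402 ± 206 normalised counts (SD, log2 difference −2.54 ± 0.49, SE). Its centred correlation with the mean of the type 2 genes was 0.904, against 0.460 for Scgb1a1 and 0.311 for Scgb3a1. Among melanocyte genes 0 of 10 were past the threshold by limma, with 1 higher at an unadjusted p under 0.05, and 1 was higher by edgeR and by DESeq2. Over all genes tested, 61 were higher by edgeR and 153 by DESeq2. The most abundant, Dct, had 232520 ± 53539 and 150390 ± 38893 normalised counts (SD).

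**Figure D4:**
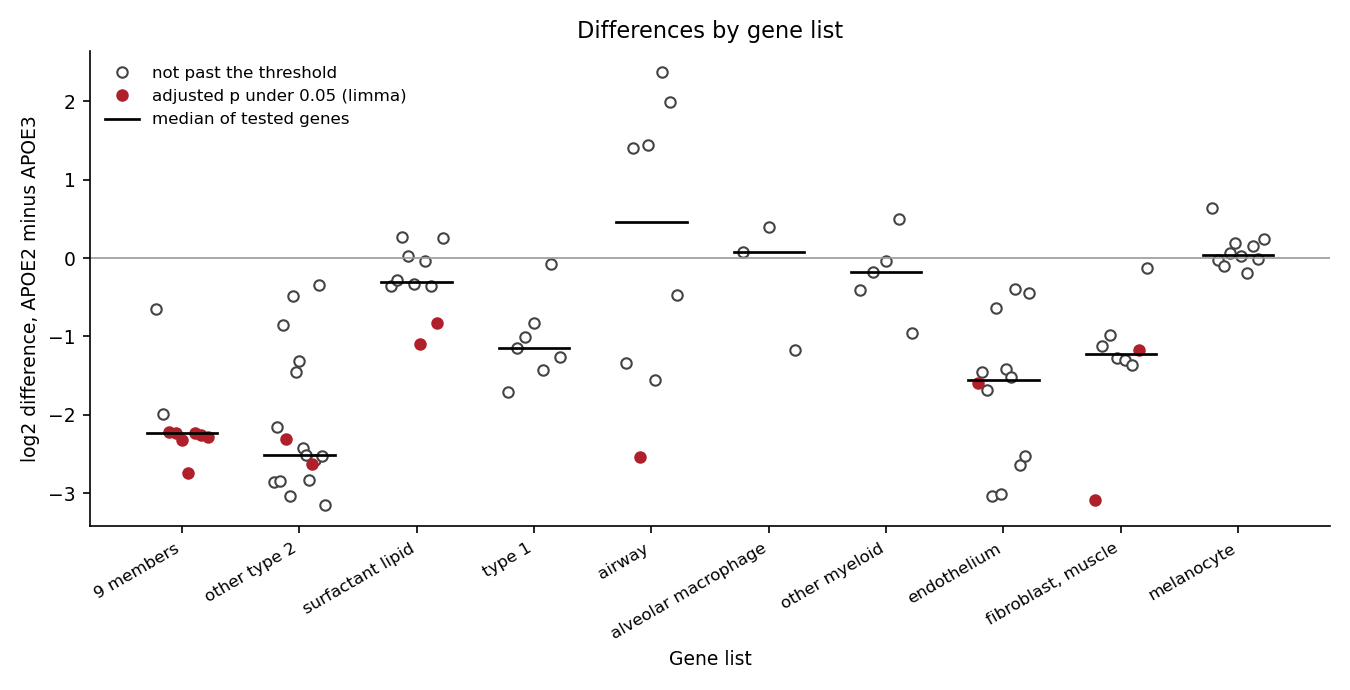
Log2 difference, APOE2 minus APOE3, of each tested gene in 10 lists, with filled points past an adjusted p of 0.05 by limma and a line at each list's median. The medians are −2.23 for the 9 genes and −2.52 for the other type 2 markers. They are −1.56 for endothelium, −1.23 for fibroblast and muscle, −1.15 for type 1 and −0.30 for surfactant lipid genes. The remaining medians are −0.18 for other myeloid, 0.045 for melanocyte, 0.080 for alveolar macrophage and 0.462 for airway genes.

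Genes most like the type 2 pattern were ranked over 13 libraries, each genotype centred, among 12394 genes that passed the filter and were not members. The likeness was Pearson's correlation with the mean log2 value of the 8 type 2 genes. Cxcl15 came first at 0.963, followed by Irx1 (0.926), Cbr2 (0.904), Lgi3 (0.901), Gm43085 (0.894), Hacd4 (0.894), B3gntl1 (0.877) and Atp1b1 (0.872). Irx1, which encodes a homeobox factor, had 57.3 ± 30.4 against 207 ± 116 normalised counts (SD), and Atp1b1, which encodes a sodium pump subunit, 52.5 ± 21.6 against 295 ± 135. Hacd4 and B3gntl1 differed from these. Their means were 124 ± 21.1 and 139 ± 34.8 for Hacd4 and 31.7 ± 15.1 and 37.9 ± 10.3 for B3gntl1 (SD), so these 2 followed the type 2 genes between libraries of a genotype, with means that lay within their spread of each other. These values are descriptions over 13 libraries, with no test. The non-members most like Lyz2 were Cxcl15 (0.975), Gm43085 (0.940), Maob (0.924), Cbr2 (0.921) and Lgi3 (0.912). Of these 5, 4 were also among the 8. Lyz2 itself had a correlation of 0.951 with the type 2 mean, so this overlap largely follows and adds no separate result.

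Of 50 protein-coding genes within 100000 bases of a member, members left out, 30 passed the filter. Their median log2 difference was −0.031, and 3 of 30 had −1 or below (Lyz1, Lgi3 and Piwil2), beside 4.18% of all genes tested. The collectin genes Sftpa1 and Sftpd, both members, are neighbours of each other, and Mbl1, which lies between them and did not pass the filter, had 0 reads in APOE2 and a mean of 7.02 ± 10.5 normalised counts (SD) in APOE3. Bmp1, 715 bases from Sftpc, had means of 75.0 ± 29.2 (APOE2) and 80.6 ± 28.1 (APOE3) normalised counts (SD). Usp39, 4307 bases from Sftpb, had 1107 ± 128 and 1031 ± 153. Lgi3, 6604 bases from Sftpc and itself on the list of type 2 markers, had 19.2 ± 20.2 and 71.6 ± 31.3.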

How the data were processed

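Libraries were prepared with the QuantSeq 3' mRNA-Seq FWD kit from sorted tumour cells, per the labels' protocols. STAR 2.6.0, featureCounts, DESeq2 1.28.1 and the build mm10 (GRCm38) are named in the submitters' processing notes, without roles. The deposited file holds normalised counts for every gene and library, treated here as a signal (read counts already scaled by the authors). In each library 100% of nonzero values were whole multiples (within 0.01 read) of 1 step, so whole reads were recovered by dividing by it. Gene identifiers were paired with symbols through a supplied table of gene names (22649 of 22656 matched), and coordinates and transcripts came from GENCODE M21.

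The test was limma 3.58.1 (R 4.3.3, two-sided, prior variance following the mean) on log2(value + 1). Genes needed a mean normalised count of 10 or more over the 13 libraries. Adjustment was Benjamini-Hochberg, with a threshold of 0.05. Fold changes on this scale understate changes of low genes. The step was tested on simulated data. Correlations used scipy 1.17.1 and numpy 2.4.6. Poisson intervals cover counting error only, since reads carry no molecular identifiers. Named genes were the 9 members, each list's genes past the threshold and most abundant gene, and the 8 and 5 genes most like the type 2 mean and Lyz2. Lyz1, Nkx2-1, Marco, Siglecf, Chil3, Fabp4, Ager, Emp2, Mbl1, Piwil2, Scgb1a1, Scgb3a1, Bmp1, Usp39 and Lgi3 as a neighbour were chosen after their values were seen. Etv5 was also chosen after its values were seen, as were Cav1, Aqp5, Clic5 and Rtkn2, the remaining tested type 1 genes. The members and lists were chosen with earlier results of these data known. Alternatives were pseudocounts of 0.5 and 5, equal totals, TMM scaling, a filter at a mean of 50 or none at all, no trend, a replicate block, edgeR 4.0.16 and DESeq2 1.42.0 on the recovered reads, the type 2 share without Sftpc or without the 100 most abundant genes, and each library left out in turn.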

Additional observations from a re-analysis of the deposited data

Results flagged for a closer look

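In 58 groups of 8 or 5 libraries, the highest and the lowest library were screened for a gap to the next one beyond Dixon's critical value at 95%. Of these, 5 values on 4 libraries stood apart, where chance gives about 2.9. In APOE2 replicate 3 Sftpa1 made up 12.3% of the type 2 sum, against 24.45% to 31.5% in the other 7 APOE2 libraries, and Abca3 made up 20.5%, against 2.29% to 9.47%. The airway markers summed to 226 CPM in APOE2 replicate 2, against at most 76.5 in the others. The other myeloid markers summed to 71.4 CPM in APOE2 replicate 1, against at most 44.0. The fibroblast and muscle markers summed to 354 CPM in APOE3 replicate 4, the library with the highest type 2 sum, against at most 128.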

How the results depend on the processing

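The sign of the log2 difference was negative for each of the 9 members under all 23 alternatives run, single libraries left out included, and the log2 difference of the type 2 share ran from −2.60 to −1.96. Counts of calls moved. Without the variance trend limma called 0 genes lower or higher, 0 members, 0 other type 2 markers and 0 genes of the other 8 lists. With no filter the counts were 4 and 5 genes, 1 member, 0 and 0. With a pseudocount of 5 they were 73 lower genes and 7 other type 2 markers, and with a minimum mean of 50 there was 1 such marker. On recovered reads edgeR called 77 lower genes and 7 other type 2 markers, and DESeq2 158 lower and 153 higher genes, 7 markers and 14 genes of the other 8 lists (6 in the reported fit). With the replicate number as a replicate block the counts were 26 lower and 17 higher genes, 6 members, 4 other type 2 markers and 3 genes of the other lists. Same-numbered libraries did not deviate together (correlations −0.063 to 0.014), and in 0 of 5 cases was the APOE2 library most like an APOE3 library the one with its number.

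Leaving out 1 library in turn gave 4 to 97 lower and 5 to 131 higher genes, 3 to 8 members, 0 to 7 other type 2 markers and 0 to 13 genes of the other lists, each at its lowest without APOE3 replicate 3 and its highest without APOE3 replicate 1, the cause of which was not tested. Relations with Sftpc past the threshold were 4 to 7 of 8, and those with the type 2 sum 2 to 3 of 11. Some uncalled relations with the type 2 sum changed sign: the type 1 list (−0.41 to 0.163, and 0.0050 with equal totals), the fibroblast list (−0.26 to 0.576), the melanocyte list (−0.27 to 0.346) and the read total (−0.17 to 0.492). Depth limits Napsa and Lamp3, with 8 to 114 and 10 to 88 reads in APOE2.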
